A study of Pan troglodytes with 8 samples.

Results

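The regions described here are stretches of chimpanzee DNA that lay more than 1000 bp from the closest gene and were open in all 4 cell populations of the study. A region was a member if the deposited count table put it over 1000 bp from its closest gene and if its interval shared at least 1 bp with a peak in each of the 4 consensus peak lists. Of 211348 regions with a chimpanzee position, 186024 were distal in this sense and 23170 were members, which is 12.5% of the distal regions. The table's distances point to gene starts in human coordinates and are not known to be chimpanzee ones; all distances to genes given here are those of the table. Members were thus chosen by measured values, the peak calls. The peak lists came from the same libraries as the counts, so that openness in every population was the choice itself and not a result. The rule did not ask where within a region the signal peaked or in which direction it differed between populations. It still left out regions without a peak in 1 of the populations, which bears on how many members are higher or lower in each. How strongly a region was open entered the choice in part, since a peak needs signal.

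Distal open regions include enhancers, which raise transcription of genes that can lie far away, insulator and boundary elements, and unannotated gene starts. In developing cortex most distal open chromatin is known to be used by one cell type or by neighbouring stages of a lineage, whereas promoters tend to be open in many cell types. A distal region that keeps a peak from stem cell to neuron is therefore of the less common kind. Openness does not show which of these functions a region has, and the closest gene is a label of position only.

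Cells were sorted by flow cytometry from cerebral organoids, which are self-organised neural tissue grown from pluripotent stem cells. Apical radial glia (aRG) are neural stem cells with contact to the ventricle, basal radial glia (bRG) are stem cells that have left that surface, basal intermediate progenitors (bIP) are dividing cells that mostly give rise to neurons, and the neurons (N) were BCL11B-positive. Each population had 2 bulk ATAC-seq libraries, in which a transposase cuts and tags open DNA. All came from 1 chimpanzee line, SandraA, seeded at 9000 cells per organoid and collected at week 8 within 3 days, with no treatment or genetic change in the labels, and no label tells whether a population's libraries came from separate cultures. P-values thus measure the spread between these libraries, and in bulk libraries more cells with an open region and a more open region per cell cannot be told apart.

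Library totals were 24913928 to 34845193 counts, and the median tested member had 136 counts in the library with the lowest median and 207 in that with the highest. Levels are given in CPM, which are counts brought to a common library size, here with TMM scaling between libraries. The populations were checked at gene starts, which are not members. At SOX2, which keeps neural stem cells undifferentiated, the summed level was 81.2 and 73.9 CPM in aRG, 70.6 and 67.4 in bRG, 37.9 and 43.7 in bIP, and 18.6 and 15.3 in N. EOMES, the defining factor of intermediate progenitors, was highest in bIP with 61.2 and 59.1 CPM, and NEUROD2, a neuronal differentiation factor, had 54.8 and 59.9 CPM in N, against 8.85 and 6.59 in aRG. The start of BCL11B, the gene by which the neurons are labelled, showed little contrast, with 27.3 and 26.7 CPM in N and 33.8 and 30.7 in aRG. At 8 regions by starts of mesenchymal and endothelial marker genes the summed level was 60.5 and 52.0 CPM in N and 122.0 and 107.6 in aRG, and at 2 regions by starts of blood and microglial genes it was 1.65 in each N library and 10.2 and 6.13 in aRG. The part of such cells in the differences between N and aRG was not tested.

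The share of distal regions with a peak in a given number of lists fell off and then rose at the end. No list held 71519 distal regions (38.5%), 1 list held 41118, 2 lists held 33174, 3 lists held 17043 and all 4 held 23170. The commonest partial sets followed the lineage, with 22613 distal regions in the N list alone, 18250 in both radial glia lists alone, 12349 in all lists but N and 11985 in bIP and N alone. Among regions at most 1000 bp from a gene, 13394 of 22130 (60.5%) had a peak in all 4 lists. The members spread over all autosomes, with 25.5% of the distal regions of chromosome 19 and 9.02% of those of chromosome 18.

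Members were wider and nearer to genes than other distal regions with a peak. Their median width was 1181 bp, against 888 bp in the 91335 distal regions with peaks in 1 to 3 lists, and 1614 bp in the 13394 regions near genes with all 4. The median distance to the closest gene was 18551 bp in members and 25319 bp in the other distal regions. The closest gene was protein-coding for 7021 members (30.3%), against 24.8% of the other distal regions, and 14544 different gene names occurred. Of these names, short non-coding families such as Y_RNA (243 members) recur on several chromosomes, which makes 371 members' closest gene ambiguous. The level per kb was 5.86 CPM in the median member, 2.57 in the other distal regions and 14.5 near genes. These are medians of whole sets and carry no test. The rule itself favours regions of more signal, and wider regions have more room to overlap a peak. The median level was 1.49 CPM in distal regions with 1 list and 7.08 CPM with 4. The contrasts in width and level thus follow in part from the choice. No annotation of this genome build was used here, so whether a member lies in an intron, exon or intergenic stretch is not given.

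At the edge of the rule, the regions nearest to the distance limit on either side are given as examples and were not compared as sets. The 3 members at 1001 bp lay by AP005019.1, Y_RNA and MACF1, with 3.33 to 5.46, 7.66 to 19.6 and 13.7 to 16.4 CPM over the 8 libraries. The 3 regions closest on the other side lay at 999 to 1000 bp from LINC00642, AC009139.1 and Metazoa_SRP, with 22.3 to 26.2, 6.07 to 9.28 and 8.60 to 15.5 CPM. The smallest overlap of any member with a peak was 157 bp, at a 281 bp region by ZNF703, so no member entered by a bare touch. The low-count filter passed 23167 members. The 3 that it removed had at most 20 counts in total over the 8 libraries despite a peak in every list, among them a 161 bp region by the ribosomal pseudogene RNA5-8SP4 with 0 to 4 counts per library.

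Within the members, accessibility varied from nearly constant to over 30-fold. For each region the range was taken as the highest minus the lowest of the 4 population means of log2 CPM. Its median was 0.87 in members, against 2.61 in other distal regions with a peak and 0.41 in regions near genes with all 4 peaks. A range under 0.5 was found in 5921 members (25.6%), against 2.26% of other distal regions and 61.1% near genes. A range over 2, which is a 4-fold spread, was found in 3035 members (13.1%), against 68.6% and 2.06%. A peak in every list limits how low the lowest population can be, and the sets differ in level, so these shares describe the sets and were not tested against each other. By level, its median was 0.59 in the 5792 members with the lowest mean CPM, 0.85 and 1.21 in the next sets of similar size and 1.13 in the 5792 members with the highest, and at 13.24 CPM or more it was 3.82 in other distal regions and 0.37 near genes.

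**Figure D1:**
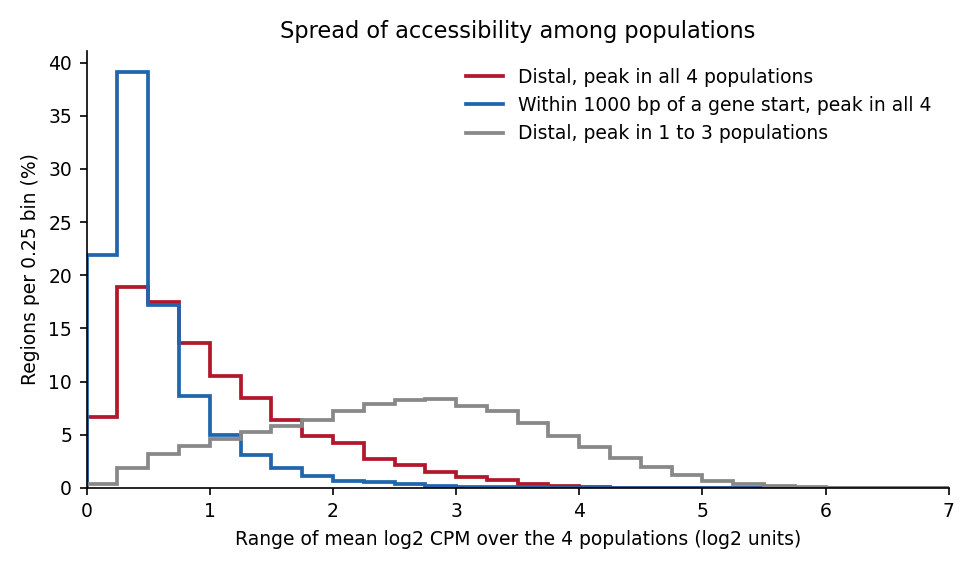
Distribution of the range of accessibility over the 4 populations (x axis, highest minus lowest population mean of log2 CPM; y axis, percent of regions per 0.25 bin) for members, regions within 1000 bp of a gene start with 4 peaks, and distal regions with 1 to 3 peaks. The members lie between the other sets, with medians of 0.87, 0.41 and 2.61.

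The members of highest level per kb included both stable and changing regions. The first was a 2128 bp region at chr20:27204928-27207055, whose closest gene name was 5_8S_rRNA, with 413.7 and 500.1 CPM in aRG, 367.1 and 487.9 in bRG, 240.5 and 351.6 in bIP, and 142.5 and 141.9 in N. Ribosomal RNA occurs in many near-identical copies among which reads can be shared out, so this value is uncertain. The next, at chr15:53827049-53827829, 1556 bp from AC105137.2, had 68.4 and 75.3 CPM in aRG, 66.8 and 71.0 in bRG, 57.9 and 63.8 in bIP, and 63.7 and 75.7 in N. Its libraries overlapped between N and aRG (log2 fold change N over aRG −0.04 ± 0.10 SE, edgeR adjusted p = 0.7). A region at chr13:91981326-91982026 by ING1, a chromatin-binding growth regulator, stayed between 53.4 and 65.8 CPM in all 8 libraries, and its call between N and aRG (−0.20 ± 0.08, edgeR adjusted p = 0.047) was lost in DESeq2 (adjusted p = 0.16). In contrast, a region at chr11:121841967-121843025 by the pseudogene NAP1L1P1 had 12.5 and 8.09 CPM in N, against 103.9 and 96.8 in aRG.

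The flattest members were picked among those above the median level of 7.08 CPM. At chr22:366616-367356 by AC007308.1, the level was 9.36 and 12.6 CPM in aRG, 10.65 and 10.89 in bRG, 11.05 and 10.94 in bIP, and 11.11 and 10.88 in N. MACF1, a large protein that links actin and microtubules, had a member 1001 bp away at chr1:37882547-37885158 with means of 15.0, 14.8, 15.2 and 14.8 CPM in aRG, bRG, bIP and N. For the member at chr3:195915346-195917309, 16999 bp from BDH1, which encodes a ketone body enzyme, the means were 33.0, 32.2, 32.6 and 31.8 CPM in the same order. Beneath these equal means the libraries numbered 1 had 37.5 to 40.3 CPM and those numbered 2 had 25.7 to 27.0, in every population. The difference between the numbered sets was thus larger there than any difference between populations.

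Differences between populations were called in edgeR's quasi-likelihood test where the p adjusted by Benjamini-Hochberg was under 0.05. The fit ran over all 198227 regions that passed the low-count filter. Between bRG and aRG no member was called, as was no region in the whole table (0.0% called). At an unadjusted p under 0.05 there were 181 members (0.78%) in edgeR, against 2.64% of all regions, and DESeq2 called 0 with 43 at that unadjusted level. The member of lowest unadjusted p in each direction was by AC079329.1 (4.24 and 4.90 CPM in bRG, 3.09 and 2.81 in aRG) and by FLRT2, an adhesion and axon guidance protein gene (8.36 and 8.34 in bRG, 12.5 and 12.1 in aRG). Neither passed adjustment, with adjusted p = 1.0 in edgeR for both.

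Neurons and apical radial glia differed at many members. N against aRG gave 12136 called members (52.4% of members tested), where 69.0% of all regions tested were called. DESeq2 called 11333, and without 1 of the N or aRG libraries 9623 to 11217 were called. Of these, 5651 were higher in N and 6485 lower, where 37.2% of all regions were higher and 31.7% lower. This split turned with library totals in place of TMM, to 6567 higher and 5740 lower, and was 4562 and 7777 without bIP replicate 2. The median log2 fold change of members was 0.0032, against 0.13 over all regions (0.12 and 0.26 with library totals), and the median absolute change was 0.66. N against bRG gave 11788 called members, 50.9% of members where 67.9% of all regions were called. Of these, 5774 were higher in N and 6014 lower, where 37.5 and 30.4% of all regions were. This split too turned, to 6027 and 5849 with library totals and to 6790 and 6758 with the replicate number as a block, and was 4553 and 7385 without bIP replicate 2. The joint test over the 4 populations called 12859 members (55.5%, against 73.5% of all regions) and left 10308 uncalled, of which 5702 also had a range under 0.5. Since a peak in each list was required, shares under those of the whole table follow in part from the choice, and nothing is read from them. The choice also bears on the splits into higher and lower, here and at the steps below. It left out 12349 distal regions with a peak in all lists but N. Against these stood 1546 in all but bIP, 1007 in all but bRG and 2141 in all but aRG.

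The step to bIP and the step from bIP to N each involved fewer members. Between bIP and aRG 8808 members were called, 38.0% of members where 47.2% of all regions were called, with 4388 higher in bIP and 4420 lower (over all regions, 24.5 and 22.6%). This split depended on scaling: with library totals in place of TMM, 5391 were higher and 3331 lower, as the median over all regions moved to 0.22 on the log2 scale, against 0.05 with TMM. Between bIP and bRG 8213 were called, 35.5% of members where 42.9% of all regions were called, with 4432 higher in bIP and 3781 lower (over all regions, 22.4 and 20.4%). Between N and bIP 7679 were called, 33.1% of members where 47.6% of all regions were called, with 2767 higher in N and 4912 lower (over all regions, 25.0 and 22.6%), and without N replicate 2 the count was 4885. Without bIP replicate 2 the split was 946 higher in N and 4817 lower. The share of calls that were higher, 36.0% with all libraries, was thus 16.4% without that library.

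**Figure D2:**
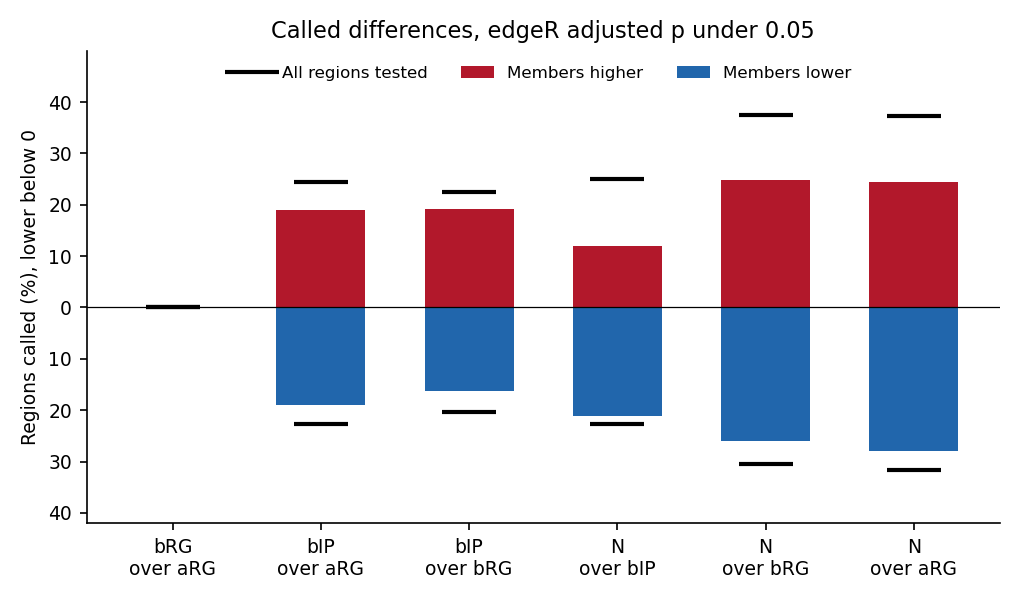
Percent of members called higher (above 0) and lower (below 0) in 6 comparisons of populations, by edgeR at adjusted p under 0.05, with black lines at the percent of all regions tested that were called. No member was called between bRG and aRG, and 52.4% were called between N and aRG.

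Crossing these steps, 10857 members (46.9%) were called at neither. Both steps went down in 1822 members and up in 672. Members higher in bIP than in aRG and again lower in N than in bIP numbered 1256, and the opposite dip in bIP was seen in 427. N stood below all 3 other populations in 3356 members and above all 3 in 1984. No shares over all regions are given for these called patterns, so they are not read as traits of the members. By mean level N was the highest population in 8056 of 23167 members and also the lowest in 8629, while bRG was highest in 2640. Over all 198227 regions tested the counts were 80347, 74962 and 29438 in the same order, and nothing is read from those of the members.

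The members that fell furthest in N were highly accessible in both radial glia populations. At chr3:71912504-71914160, 40102 bp from EIF4E3, which encodes a cap-binding translation factor, the level was 93.0 and 72.65 CPM in aRG, 76.6 and 72.7 in bRG, 11.9 and 20.5 in bIP, and 2.55 and 2.71 in N. This was a log2 fold change of −4.98 ± 0.23 (SE) for N over aRG (edgeR adjusted p = 4.1e-08). The peak lists still held it in N, with an authors' fold enrichment of 7.003 and a −log10 q of 42.7, against 10.1 and 884 in aRG. At chr11:16203926-16205274, 72618 bp from SOX6, a transcription factor of neural progenitors and some neuron classes, the level was 80.9 and 70.9 CPM in aRG, 69.7 and 68.9 in bRG, 22.4 and 33.8 in bIP, and 4.13 and 3.06 in N (−4.39 ± 0.20, edgeR adjusted p = 4.1e-08). The bIP libraries lay between the others without overlap at both regions. The other 3 regions that the rule named for N below aRG, by RNA5SP52, ATP5F1BP1 and the integrin gene ITGA2, ran the same way, with log2 fold changes of −4.70, −4.44 and −4.34.

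The members that rose furthest in N did so mainly by bIP. At chr8:20545863-20547065, 36578 bp from AC018541.1, the level was 1.61 and 1.97 CPM in aRG, 2.65 and 2.69 in bRG, 32.5 and 21.2 in bIP, and 42.8 and 42.2 in N. The log2 fold change was 4.57 ± 0.23 for N over aRG (edgeR adjusted p = 4.6e-08) and 3.90 ± 0.23 for bIP over aRG (adjusted p = 1.7e-06). Regions by AC073316.1, RNU1-8P and AC107396.1 followed the same course, with 20.4 to 29.4, 17.6 to 33.1 and 20.7 to 38.1 CPM over the bIP and N libraries and at most 3.03 CPM in any radial glia library. The region by AL354824.1 at chr20:10456130-10457014 was later, with 12.3 and 7.10 CPM in bIP and 25.3 and 32.3 in N. None of these 5 closest gene names was listed as protein-coding by symbol in RefSeq, and their type is not given.

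Other named members had their maximum or minimum in bIP. The region at chr2B:37728782-37730166 by FABP5P10 had 5.21 and 4.24 CPM in aRG, 3.796 and 3.334 in bRG, 40.1 and 38.6 in bIP, and 4.32 and 3.18 in N. It rose by 3.06 ± 0.22 (log2, bIP over aRG, edgeR adjusted p = 3.1e-06), and N over bIP was −3.38 ± 0.22 (adjusted p = 3.5e-06), while N and aRG were not called apart. A region at chr18:69032857-69035151 by the zinc finger gene ZNF407 had 24.2 and 28.2 CPM in bIP and 4.25 to 5.38 CPM in the 6 other libraries. Among dips, the region at chr3:63111270-63113489, 8613 bp from CADPS, a gene of regulated vesicle release, had 21.9 and 18.3 CPM in aRG, 15.7 and 12.7 in bRG, 4.14 and 4.18 in bIP, and 10.7 and 14.7 in N. It was also lower in N than in aRG (−0.67 ± 0.21, edgeR adjusted p = 0.012). The strongest summits of its 4 peaks lay up to 1079 bp apart.

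**Figure D3:**
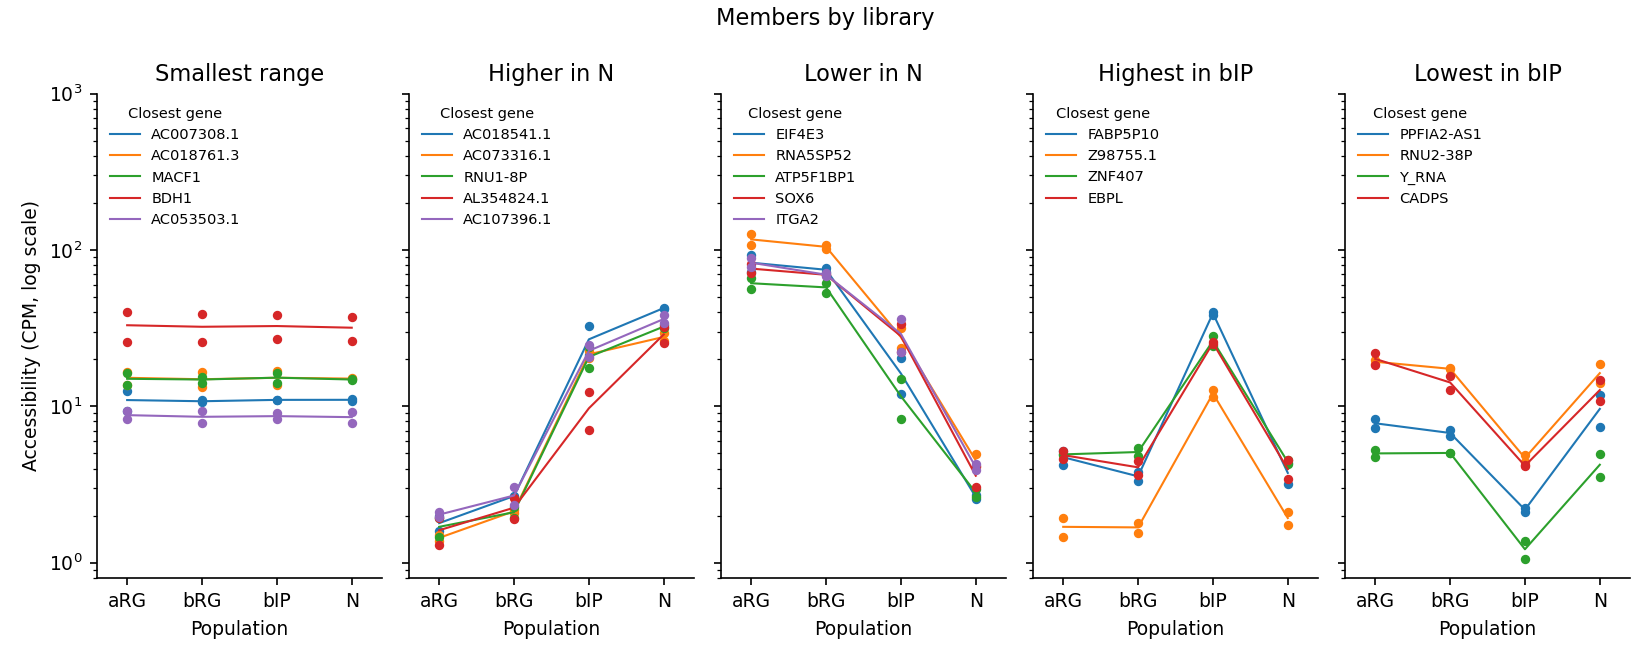
Accessibility (CPM, log scale) of the named members in each library (points), with lines through the population means, for aRG, bRG, bIP and N. The panels show the flattest members, those most changed in N over aRG in either direction, and those highest or lowest in bIP. The EIF4E3 region drops to 2.55 and 2.71 CPM in N.

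Marker lists were used to ask how members lie around genes of known roles. All lists were chosen with earlier results of these data known, and some share genes, such as PAX6, GLI3, NFIA and LHX2. For the radial glia list, 8 of 16 genes (50.0%) were the closest gene of at least 1 member, for deep-layer neuron genes 9 of 11, and for transcription factors shared by neural cells 12 of 18. The background was 32.4% of the 14206 protein-coding genes that named any region, and genes with many regions have more chances. Basal radial glia genes (7 of 12), upper-layer neuron genes (7 of 12) and pan-neuronal genes (10 of 19) also lay above it. So did cell cycle genes (7 of 17) and astroglia genes (4 of 10). Near or below it were lists such as bIP genes (5 of 14), dorsal telencephalon patterning genes (5 of 16) and interneuron and ganglionic eminence genes (4 of 14). Members were 14.4% of all regions of radial glia genes, 9.5% for deep-layer genes and 15.2% for shared factors. Over all protein-coding genes that share was 12.0%. Of the 17 members of radial glia genes, 0 were higher and 14 lower in N than in aRG, with a median log2 fold change of −1.19. DESeq2 gave 0 and 15, and no member of the list was higher at adjusted p under 0.05 in any of the alternatives tried. The basal radial glia list had 1 higher and 10 lower of 14 (median −0.98).

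Members by neuronal genes were called in both directions, with medians below 0. By deep-layer neuron genes 1 was higher and 15 lower of 21 (median −1.04), by upper-layer genes 3 and 6 of 11 (−0.89), by pan-neuronal genes 6 and 8 of 19 (−0.20), and by bIP genes 5 and 8 of 15 (−0.54). The pan-neuronal split was 6 and 6 with library totals and without N replicate 2, and 6 and 5 without aRG replicate 1. For bIP over aRG the pan-neuronal list had 8 higher and 4 lower (median 0.16). By dorsal telencephalon patterning genes it was 0 and 7 of 13 (−0.75), by shared neural transcription factors 8 and 22 of 42 (−0.47), by mesenchymal and endothelial genes 1 and 7 of 10 (−1.04) and by housekeeping genes 1 and 1 of 10 (−0.28). Over all 7021 members by protein-coding genes, 1585 were higher and 1867 lower (median −0.01). That overall median was 0.11 with library totals and −0.11 with DESeq2. The medians of the 8 lists in this paragraph were below 0 under each of these scalings.

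**Figure D4:**
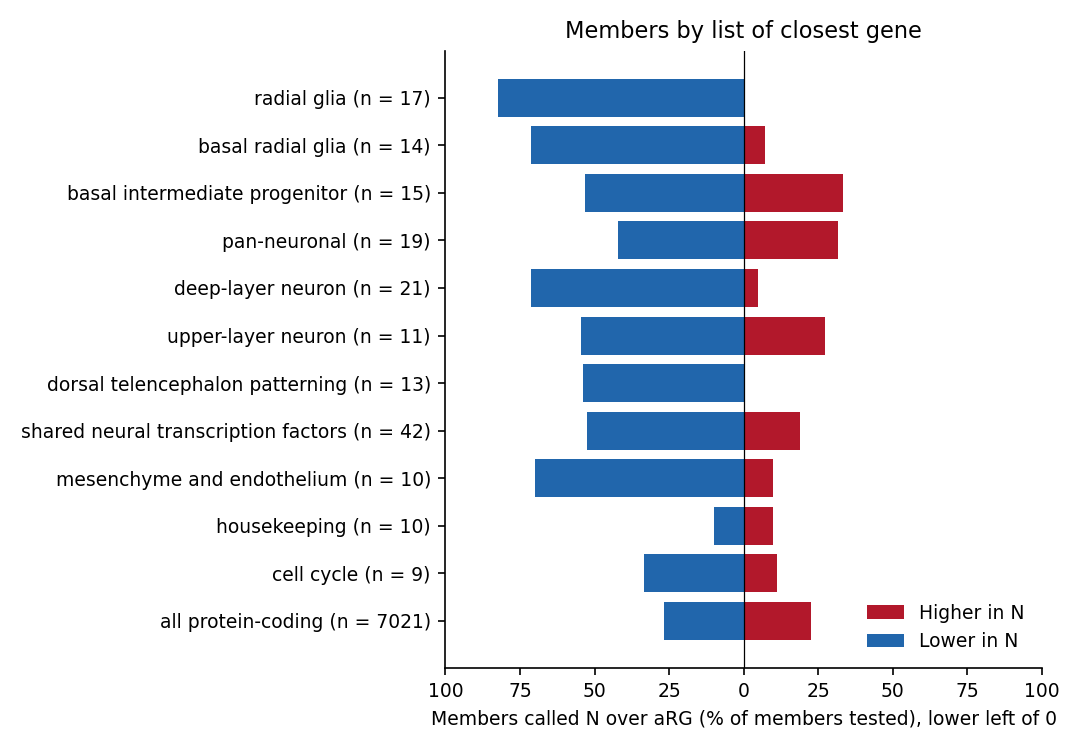
Percent of members called higher (right of 0) or lower (left of 0) in N over aRG, by list of the closest gene, with the number of members tested. All 14 radial glia members that were called, of 17 tested, lie on the lower side, and the bottom bar gives 7021 members by protein-coding genes.

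Among the marker genes singled out by name, the member by NEUROD2 was the only one called higher in N than in aRG, while others were lower or not called. PAX6, which specifies cortical radial glia, had 3 members 52775 to 57669 bp away, all lower in N than in aRG. The strongest, at chr11:31572279-31573062, had 49.2 and 45.4 CPM in aRG, 44.1 and 40.7 in bRG, 33.6 and 38.7 in bIP, and 7.79 and 5.15 in N (−2.86 ± 0.17, edgeR adjusted p = 9.6e-08). Its bIP libraries stayed close to the radial glia, so that the drop came between bIP and N (−2.47 ± 0.17, adjusted p = 4.8e-06). HOPX, a marker transcript of basal radial glia in primates, had 1 member at chr4:72198299-72199866 with 72.1 and 64.6 CPM in aRG, 60.6 and 65.3 in bRG, 34.2 and 39.0 in bIP, and 10.5 and 7.39 in N. NFIA and NFIB, nuclear factor I genes that act in glial and neuronal differentiation, had 6 and 3 members, of which 5 and 3 fell. The member by NEUROD2, at chr17:17156712-17157753, had 26.8 and 25.3 CPM in N, 19.2 and 19.8 in bIP, 4.53 and 4.29 in bRG, and 4.04 and 3.23 in aRG (2.84 ± 0.19 for N over aRG, edgeR adjusted p = 2.3e-07).

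BCL11B, which marks the sorted neurons, had 1 member, at chr14:80220238-80221063, and it was lower in N, with 13.7 and 11.7 CPM, against 22.1 and 20.03 in aRG (−0.73 ± 0.16, edgeR adjusted p = 0.0013). BCL11A, its relative, and EMX2, a cortical patterning factor, had 4 members each, of which 1 fell at each gene and 3 were not called. By SOX4, a factor of neuronal differentiation, a 2812 bp region had 58.8 and 56.7 CPM in N and 73.9 and 67.1 in aRG. Its log2 fold change was −0.29 ± 0.08 (edgeR adjusted p = 0.0085), a call lost in DESeq2 (adjusted p = 0.064) and without N replicate 2 (0.058). ZBTB18, a repressor needed for cortical neuron maturation, and the neural POU factors POU3F2 and POU3F3 had 1 member each, all lower in N, by −0.52, −1.003 and −1.47. SOX2, EOMES, TBR1, LHX2, SOX11, TCF4 and MEIS2 had none.

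Members that shared a closest gene could differ in direction. Of the 599 protein-coding genes with at least 2 members called between N and aRG, 258 had members of both directions, 148 only higher ones and 193 only lower ones. Over all called members 5651 were higher and 6485 lower, so unrelated members would also often differ. The counts by gene were not set against unrelated members, and nothing is read from them. AUTS2, a gene for a transcriptional regulator of neuronal development, had the most members of any protein-coding gene. They numbered 17 of its 127 regions and lay 25562 to 544662 bp from it, with 7 higher in N, 6 lower and 4 not called. At chr7:66135527-66136675 the level was 4.81 and 3.65 CPM in N, against 25.3 and 23.1 in aRG (−2.51 ± 0.20, edgeR adjusted p = 5.7e-07). Nearby, to its left on the map, chr7:66113976-66115000 had 19.2 and 20.5 CPM in N, against 4.47 and 7.31 in aRG (1.76 ± 0.23, adjusted p = 2.2e-05), with bIP already at 20.7 and 20.9. A member at chr7:66206730-66207779 stayed between 4.24 and 6.41 CPM in all 8 libraries. The call of the member at chr7:66332576-66334036 (0.40 ± 0.16, adjusted p = 0.045) was lost in DESeq2 (0.27). BMPR1B, a receptor for bone morphogenetic proteins, had 10 members, with 2 higher, 3 lower and 5 not called.

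Members that lay close together mostly had the same direction, but not always. Where adjacent members less than 5 kb apart were both called between N and aRG, the direction was the same in 373 of 500 pairs (74.6%). With gaps over 500 kb it was the same in 119 of 204 (58.3%). No such share is given for regions that are not members, so it is not read as a trait of the members. Of all members, 3326 lay in 1564 runs in which each was within 5 kb of the next. The widest run, 18664 bp at chr3:131255622-131274285 by TMEM108-AS1, held 4 members. In genomic order their log2 fold changes for N over aRG were −1.43 ± 0.25, −0.46 ± 0.31, 1.08 ± 0.22 and 2.11 ± 0.38, of which the second did not pass (edgeR adjusted p = 0.2). The first had 8.63 and 5.19 CPM in N, against 20.4 and 16.9 in aRG, and the last had 22.2 and 12.5 in N, against 5.56 and 2.48 in aRG. Neither pair overlapped.

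Members farther from genes varied more among the populations. The median range was 0.69 at 1 to 5 kb (3749 members tested), 0.80 at 5 to 20 kb, 0.94 at 20 to 50 kb, 1.06 at 50 to 200 kb and 1.27 beyond 200 kb (298 members). Over the same bins the share with a range under 0.5 was 34.4, 28.6, 21.8, 18.7 and 11.7%, and the share over 2 was 7.87, 11.1, 14.8, 18.0 and 25.2%. Median levels differed little, with 6.62 to 8.13 CPM across bins, and median widths ran between 1099 and 1248 bp. No values by distance are given for other distal regions, so this trend is not read as a trait of the members. Among the farthest members were one 540825 bp from RNF217, a ubiquitin ligase gene, with 9.004 and 6.324 CPM in N against 40.8 and 33.6 in aRG, and one 563303 bp from KRT8P44 that dipped in bIP, at 2.07 and 1.61 CPM.

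The position of strongest signal was mostly shared. The choice of members did not ask for this, but it put a peak of each list on the same interval, of median width 1181 bp. This limits how far apart the summits can lie, and no spread is given for regions with fewer lists. For each member the strongest summit of the overlapping peaks was taken from each list. The 4 summits lay within a median of 22 bp, within 50 bp in 70.2% of members and more than 200 bp apart in 18.1%. In regions near genes with all 4 peaks the median was 17 bp. Between pairs of lists the median distance in members was 5 bp for bRG and aRG, 10 bp for bIP and aRG, 10 bp for N and bIP and 16 bp for N and aRG. Members of stable level also had stable summits: the median spread was 13 bp at a range under 0.5, 18 bp at 0.5 to 1, 37 bp at 1 to 2 and 57 bp over 2, and 87.3, 76.9, 58.9 and 46.8% lay within 50 bp. A region with several summits can change its strongest one, and the 3612 members with a single summit in every list had a median spread of 15 bp, with 0.47% more than 200 bp apart. There was 1 list per population, so summit distances have no replicate spread.

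**Figure D5:**
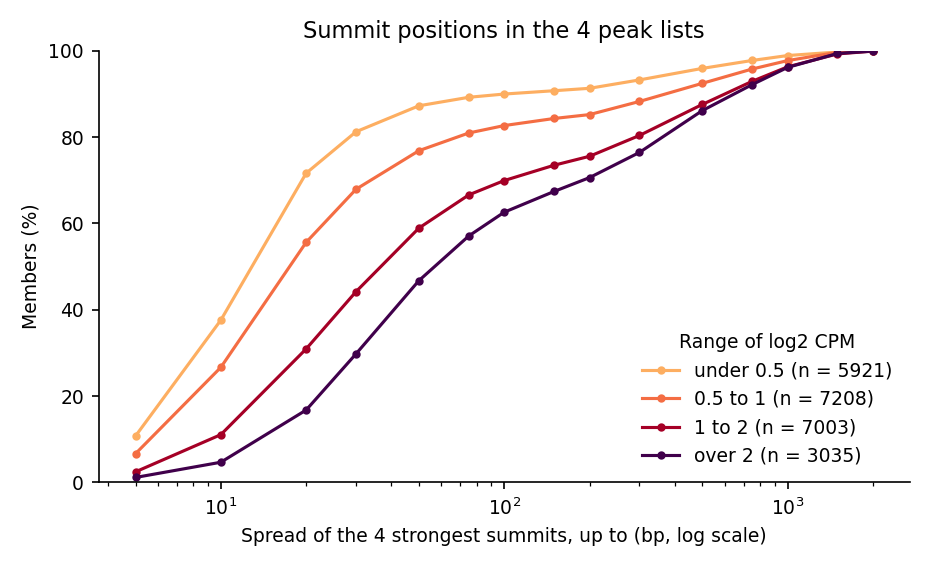
Cumulative percent of members (y axis) whose 4 strongest summits lie within the given distance (x axis, bp, log scale), by the range of log2 CPM over the populations. At 50 bp the curves stand at 87.3, 76.9, 58.9 and 46.8% from the smallest to the largest range.

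Summed over all members, the share of a library's counts was highest in bIP and lowest in N. Their share was 24.0 and 23.5% in aRG, 24.0 and 23.8% in bRG, 25.35 and 24.96% in bIP, and 22.4 and 20.8% in N. Neither the bIP nor the N libraries overlapped with another population. An exact permutation test over all ways to divide the libraries into 4 populations gave p = 0.029 (adjusted over 4 sets of regions 0.029), where the smallest possible is 0.0095. It asks for any difference among populations, not which is highest or lowest. Since the members were chosen by peaks from the same libraries, no conclusion is drawn from this p. The mean was 21.6 ± 1.17% in N and 23.8 ± 0.37% in aRG (SD, n = 2), a difference of −2.16 percentage points. That difference was −1.34 without N replicate 2. The other distal regions took 39.4 ± 0.99% in N and 33.0 ± 0.37% in aRG. The shares of the different sets add up within a library and are not independent.

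Across members, the populations fell into the order of the lineage, whereas single radial glia libraries correlated most with those of the same number. Pearson correlations of log2 CPM were 0.969 to 0.987 between bRG and aRG libraries, 0.718 to 0.794 between bIP and aRG, 0.730 to 0.878 between N and bIP, and 0.530 to 0.595 between N and aRG, beside 0.973 within aRG and 0.941 within N. The aRG and bRG libraries numbered 1 correlated at 0.9865 and those numbered 2 at 0.9866. Within aRG the value was 0.9734 and within bRG 0.9713, so by correlation the radial glia libraries grouped by number and not by population. These correlations are across regions, which share libraries and are not independent. The leading principal component held 73.3% of the variance and ran from −76.7 in the lowest aRG library to 101.9 in the highest N library. The next, with 17.5%, set bIP apart, at −57.7 and −57.5, while the 6 other libraries lay between 2.41 and 55.6.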

How the data were processed

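Per the file headers, the count table deposited by the authors gives unscaled whole-number counts of 8 libraries for each region, beside human, chimpanzee and gorilla identifiers and the closest gene with a distance. The processing notes of the submitters name bcl2fastq 2.20.0, MACS2, panTro6 and hg38. No source used here names the aligner or counter. The deposited peak lists, 1 per population, follow the narrowPeak layout per the file headers, with a score, a fold enrichment (ratio), −log10 p- and q-values and a summit offset per peak. No source used here says how they combine replicates. Their intervals, fold enrichments, −log10 q-values and summits were used.

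Of 218080 rows, 6725 without a chimpanzee identifier, all at 0 counts, and 7 repeated ones were left out. Starts equalled 56998 peak starts if counted from 0 and 11 if counted from 1, so 1 was added. Coordinates are panTro6. Distances pointed to 1 position per gene, within 2 bp, in 98.7% of 164762 distal regions of genes with at least 3, in human coordinates. They are taken as distances to gene starts and are not known to be chimpanzee ones. Which genes are protein-coding was read by symbol from a RefSeq table of NHGRI_mPanTro3-v2.0.

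edgeR 4.0.16 (TMM, filterByExpr, robust quasi-likelihood F-test, population as the only term, all 8 libraries) was fitted over 198227 regions. It had 4 residual degrees of freedom and was tested on simulated data with 200 changed regions. "Rose" and "fell" mean adjusted p under 0.05. Log2 CPM carry a prior count of 2. Alternatives were DESeq2 1.42.0, library totals, no filter, a replicate block, each library left out, larger distances, 50% coverage of the region by peaks, and stricter peaks. Named regions were taken by fixed rules: highest CPM per kb, smallest range, largest change in N over aRG, extremes in bIP, named marker genes, threshold neighbours, farthest, genes with most members, widest run, and lowest p for bRG over aRG. The members and all gene lists were chosen with earlier results of these data known.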

Additional observations from a re-analysis of the deposited data

How the results depend on the processing

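No called difference at a named region changed sign, whereas the split of calls into higher and lower turned for N over aRG and N over bRG under settings given above, and for bIP over aRG, where it was nearly even, under several settings, among them DESeq2 (4070 higher and 3953 lower). The number of members was 22089, 19419 and 15677 with distal set at over 2000, 5000 and 10000 bp and 15483 when peaks of each list had to cover 50% of the region. Peaks of −log10 q of at least 10 kept all 23170, as the weakest member peak had 17.3. Under 50% coverage N over bRG gave 7832 called members, of 15480 tested. The share of members with a gorilla identifier was 94.1% (94.7% at over 5000 bp, 95.4% at over 10000 bp and 93.4% under 50% coverage). Leaving out 1 library at a time gave 6417 to 9176 called members for bIP over aRG, 5848 to 8586 for bIP over bRG, 4885 to 7711 for N over bIP, 9214 to 11938 for N over bRG, 9623 to 12339 for N over aRG and 11323 to 12583 jointly, and −2.99 to −1.34 percentage points for the share of counts in N minus aRG. Where an arm keeps 1 library, that library is assumed to vary like the others. With the replicate block the counts were 10605, 10109, 9961, 13548, 13832 and 15090 in the same order, and 0 for bRG over aRG with 525 at unadjusted p under 0.05. Same-numbered libraries deviated together (correlations of deviations over members 0.26 to 0.61), but with only 2 numbers and no shared origin in the labels this is a hint from the data, not a pairing. Of 888 values for 74 comparisons at named regions under the alternatives, 852 kept their side of the threshold, 22 lost it and 14 gained it. Signs changed in 27 values at 9 comparisons, none of them called in the main test. The 22 lost values lay at 4 of 49 called comparisons, by ING1, SOX4, Y_RNA (chr1:24553138-24554877) and AUTS2 (chr7:66332576-66334036). The cause was not tested. With 2 libraries per population, members of few counts allow only large differences to be called.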

Other observations

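Adjacent members were compared in their log2 fold change of N over aRG. For 1760 adjacent pairs less than 5 kb apart the Pearson correlation was 0.33. At 5 to 20 kb the correlation was 0.17, and at 100 to 500 kb it was 0.074, with 54.8% of 1707 called pairs in the same direction. The pairs share libraries and chromosomal background, so these are descriptions.

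The identifiers in other species give lengths of the matched intervals. A gorilla identifier was present for 94.1% of members, 95.9% of other distal regions with a peak and 91.0% of regions near genes with all 4 peaks. It was present for 91.0% of members 1 to 5 kb from a gene and 99.3% of those beyond 200 kb. The chimpanzee and human intervals had exactly the same length in 29.3% of members and 41.9% of other distal regions, and between widths of 900 and 1500 bp in 29.0 and 33.2%. The member that was longest relative to its human interval lay at chr11:58765544-58768894 by WDR74, with 3351 bp in chimpanzee and 642 bp in human coordinates. The shortest lay at chr1:9431672-9432205 by CASZ1, with 534 and 2152 bp. No source used here says how the intervals were matched.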
